A study of Mus musculus with 5375 samples.

Results

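Galectins and the galectin-3 binding protein were followed through tumor cells (TCs) that lodge in the mouse lung and through the lung endothelial cells (ECs) that receive them. The set holds 5 genes, *Lgals1*, *Lgals3*, *Lgals8*, *Lgals9* and *Lgals3bp*, of 35299 genes in the TC count table and 35308 in the EC count table. The genes were chosen by their levels in these same data, as reads of the gene per 1000000 reads of the library (CPM) and as the share of cells with a read, across the 5 TC groups, between cycling and noncycling cells of the latent gate, and across the 3 EC days. Their values in those comparisons are therefore given as a description, with the fitted log2 difference and its standard error (SE) but with no test. The members were tested only where the choice had not looked, namely by cycle state in the intravascular and extravascular gates and between EC classes.

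Galectins are small lectins that bind beta-galactoside sugars on glycoproteins and glycolipids. They are made without a secretory signal peptide, act in the cytosol and nucleus as well as on the cell surface, and are best known for linking integrins and other glycoproteins on tumor, endothelial and immune cells. Galectin-1 (*Lgals1*) is a dimer of single sugar-binding domains, galectin-3 (*Lgals3*) joins one such domain to a self-associating tail, and galectin-8 (*Lgals8*) and galectin-9 (*Lgals9*) carry a pair of different domains on a linker. The galectin-3 binding protein (*Lgals3bp*) is a secreted scavenger-receptor glycoprotein, not a lectin, that binds galectins and matrix proteins.

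The TCs were 4T1 cells carrying GFP, a BALB/c mouse breast cancer line, injected into the tail vein of young adult female BALB/c mice. The groups were uninjected cells from culture (1 pool, 369 cells analysed), intravascular and extravascular cells of the same 4 animals on day 1.5, told apart by an antibody injected into the blood (79–84 and 69–82 cells per animal), latent cells that kept a division dye on day 3.5 (4 animals, 80–85 cells each), and proliferative cells that had diluted it (237 cells). GEO's labels and the paper's methods give 4 replicates for the proliferative gate, but the annotation assigns all of its cells to 1 animal, so they are 1 pool here. ECs were sorted from wild-type lungs as CD31+ cells lacking CD45, PDPN, LYVE1 and TER119, from uninjected animals (day 0, 4 animals, 180–226 cells each), and from injected animals on day 1.5 (3 animals, 293–335 cells) and day 3.5 (3 animals, 213–266 cells). Injected cells entered by the vein and came from 1 line, so the model starts after the primary tumor. TC libraries were pooled for sequencing by gate, so a gate and its pool cannot be told apart. Per the annotation, 2 of the day 0 animals were sorted with the day 1.5 animals and 2 with the day 3.5 animals.

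*Lgals1* lies on the plus strand of chromosome 15 at chr15:78926725-78930465 (GRCm38) and *Lgals3* on the plus strand at chr14:47367751-47386160. *Lgals8* is on the minus strand at chr13:12439415-12464944. *Lgals9* and *Lgals3bp* are both on the minus strand of chromosome 11, at chr11:78962974-78984946 and chr11:118392751-118402092. Reads were summed over each whole gene, so no exon or isoform is resolved. RefSeq promoters (GRCm38.p6, 250 bases before to 50 after the start) were found for 4 members; *Lgals1* had no entry. The promoters of *Lgals9* and *Lgals3bp* are shown because these 2 genes had the most similar pattern over the TC libraries. Capitals mark GAAANNGAAA, the core of the interferon-stimulated response element, which both sites show as its reverse complement.
Lgals9, chr11:78984875-78985174, minus strand: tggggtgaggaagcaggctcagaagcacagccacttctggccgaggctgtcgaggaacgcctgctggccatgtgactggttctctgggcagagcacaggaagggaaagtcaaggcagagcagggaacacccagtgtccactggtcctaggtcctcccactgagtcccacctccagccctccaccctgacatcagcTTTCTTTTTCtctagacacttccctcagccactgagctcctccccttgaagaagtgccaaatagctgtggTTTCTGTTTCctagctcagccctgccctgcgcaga
Lgals3bp, chr11:118401910-118402209, minus strand: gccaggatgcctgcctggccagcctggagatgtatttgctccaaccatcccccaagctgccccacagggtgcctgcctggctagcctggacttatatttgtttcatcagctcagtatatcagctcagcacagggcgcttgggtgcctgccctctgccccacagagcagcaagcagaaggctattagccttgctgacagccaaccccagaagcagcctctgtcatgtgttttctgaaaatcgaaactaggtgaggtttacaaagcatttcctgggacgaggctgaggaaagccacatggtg
The motif was searched on both strands, without regard to overlap with other motifs. It started at positions -55 and 16 relative to the start of *Lgals9*, both on the strand opposite to the gene, and was in none of the other 3 promoters. Of all 32851 promoters 1131 held it (3.44%). Of the 32 interferon-responsive genes listed for comparison, 26 had a promoter entry and 13 of those held the motif. A match is a description of the letters only.

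Summed reads per TC library of an animal ran from 31890300 to 49892400, and per EC library from 75579600 to 129504000. The median number of genes per cell was 5721–7145 in TC libraries and 1951–2974 in EC libraries. All 5 epithelial markers listed for the TCs were above 1 CPM in every TC group, with a summed level of 2335–5413 CPM, and all 6 endothelial markers were above 1 CPM on every EC day, summing to 8672–15241 CPM. The 10 macrophage and monocyte markers summed to 26.2–291 CPM in the latent libraries, against 7.71–23.5 CPM in extravascular, 10.5–16.6 CPM in intravascular and 20.4 CPM in proliferative cells. Lymphocyte markers stayed at or below 3.29 CPM in every TC library. No cell name occurred more than once in either table. In sums over cells of a library, fewer cells of a kind and less RNA per cell cannot be told apart.

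*Lgals1* was by far the most abundant member in TCs. Every TC had *Lgals1* reads. The level in culture was 23341 CPM. Intravascular cells had 28091, 25256, 27052 and 27889 CPM in the 4 animals, and extravascular cells of the same animals 26678, 28576, 25384 and 25261 CPM. These groups overlapped, and the culture pool lay below both. Latent cells had 20338, 18850.5, 21755 and 23816 CPM and the proliferative pool 21697 CPM, inside the latent range and below every day 1.5 library. *Lgals1* in latent cells was thus at 21190 ± 2115 CPM (SD, n = 4) against 26475 ± 1540 CPM (SD, n = 4) in extravascular cells, a fitted log2 difference of -0.46 ± 0.08 (SE).

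**Figure D1:**
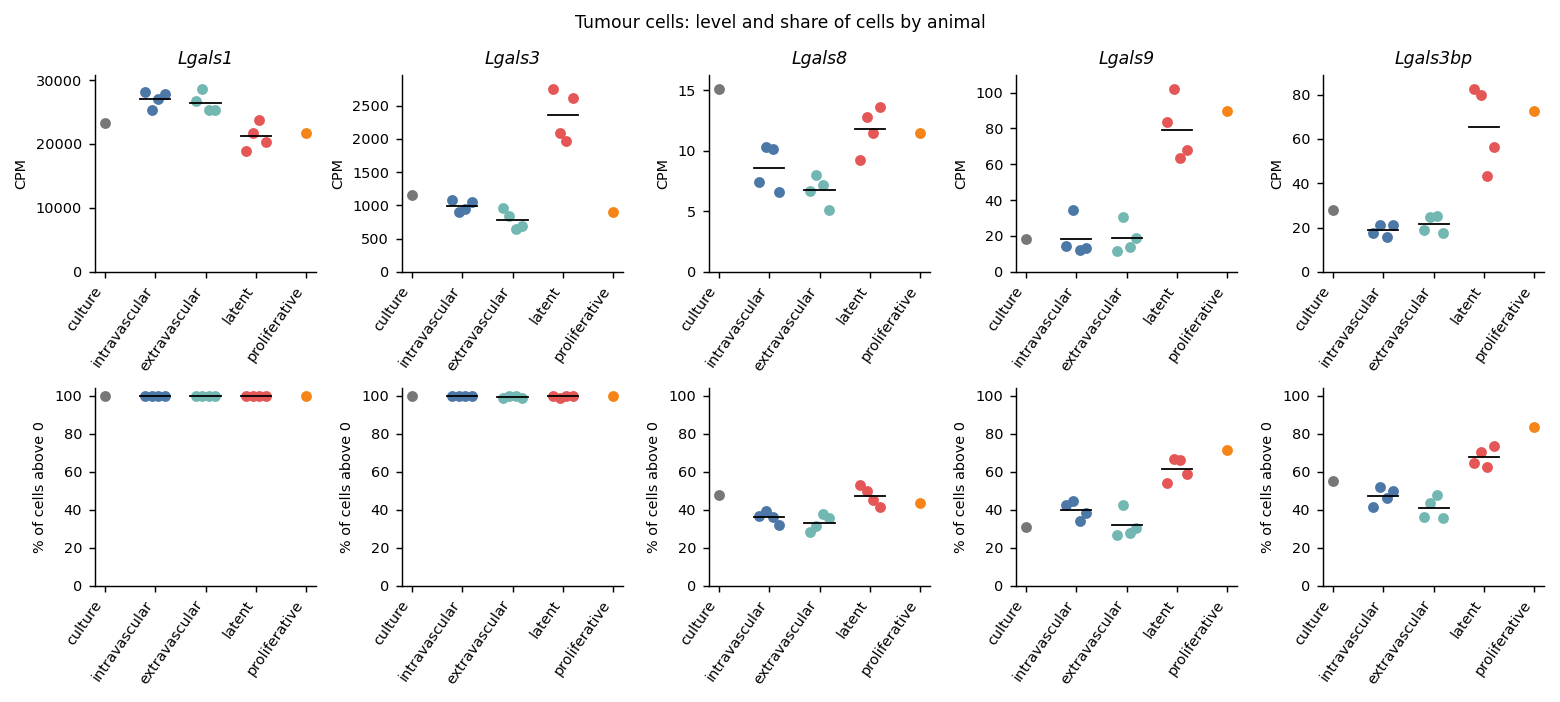
Each point is 1 animal (culture and proliferative are 1 pool each), the line is the mean over animals; the upper row gives CPM on linear axes from 0 and the lower row the percentage of cells with any read. Latent libraries lay above every day 1.5 library for *Lgals3*, *Lgals9* and *Lgals3bp*, and the proliferative pool lay with the latent libraries for *Lgals9* and *Lgals3bp* but with the day 1.5 libraries for *Lgals3*.

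*Lgals3* had a different order. Culture was at 1161 CPM. Intravascular cells had 1084, 904, 948 and 1047 CPM, extravascular cells 962, 834, 643 and 689 CPM. Extravascular cells were below intravascular cells in each of the 4 animals, but the ranges overlapped. Latent cells had 2611, 2748, 2086 and 1960 CPM, above every other TC library. The proliferative pool, sorted on the same day, was at 893 CPM, between the day 1.5 groups. The latent mean was 3.01 times the extravascular mean and 2.63 times the proliferative level. The fitted log2 differences were 1.44 ± 0.13 (SE) for latent against extravascular and 1.38 ± 0.23 (SE) for latent against proliferative, where 1 pool stands for the proliferative gate. Within the latent gate the level was uneven: the cell at the 90th percentile had 4610–7170 CPM and the median cell 923–1473 CPM.

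*Lgals8* was low, with 15.1 CPM in culture, 8.60 ± 1.90 CPM in intravascular, 6.74 ± 1.23 CPM in extravascular, 11.8 ± 1.92 CPM in latent (SD, n = 4 each) and 11.4 CPM in proliferative cells. Latent libraries (9.21–13.6 CPM) and extravascular libraries (5.09–8.03 CPM) did not overlap, while intravascular libraries (6.58–10.3 CPM) overlapped both. About the same order held for the share of cells with a read, 48.0% in culture and 33.1% in extravascular cells at the ends. Galectin-8 is known for marking damaged endosomes for autophagy.

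*Lgals9* and *Lgals3bp* shared a pattern, low in culture and on day 1.5 and high in both day 3.5 gates. *Lgals9* was at 18.4 CPM in culture, at 14.2, 34.3, 12.2 and 13.5 CPM in intravascular and at 11.7, 30.7, 13.6 and 18.9 CPM in extravascular cells. Latent cells had 68.0, 83.8, 101.9 and 63.7 CPM and the proliferative pool 89.6 CPM. The animal numbered 2 was the highest on day 1.5 in both gates, and still below every day 3.5 library. *Lgals3bp* was at 27.8 CPM in culture, at 17.4, 21.3, 15.8 and 20.9 CPM in intravascular and at 19.1, 24.9, 25.4 and 17.7 CPM in extravascular cells. Latent cells had 56.6, 82.5, 79.8 and 43.4 CPM and the proliferative pool 72.6 CPM, with no overlap between days. The log2 differences of latent against extravascular cells were 1.93 ± 0.37 (SE) for *Lgals9* and 1.44 ± 0.21 (SE) for *Lgals3bp*. Latent against proliferative cells gave -0.19 ± 0.56 and -0.17 ± 0.31 (SE), with the proliferative pool inside the latent range for both. Per the annotation the pool comes from the animal of latent replicate 4. The pool was higher than that latent library for *Lgals9* (89.6 against 63.7 CPM) and *Lgals3bp* (72.6 against 43.4 CPM). The paper describes 4 replicates for the proliferative gate, so it is not certain that both came from the same animal.

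The shares of cells with a read moved with these levels. *Lgals9* reads were in 54.1–66.7% of latent cells per animal, 71.3% of proliferative cells and 26.7–42.5% of extravascular cells. *Lgals3bp* reads were in 62.5–73.8% of latent, 83.5% of proliferative and 35.4–47.8% of extravascular cells. Because cells differ in depth, shares were also computed for each cell thinned to 100000 reads, leaving out shallower cells (20 of 329 latent and 12 of 306 extravascular). At that depth *Lgals9* was in 47.9–60.1% of latent and 20.5–30.9% of extravascular cells, and *Lgals3bp* in 52.6–66.7% and 26.8–38.7%. *Lgals8* was in 28.4–35.9% and 17.7–25.4%.

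Over all genes, 1649 of 19249 (8.57%) were called between latent and extravascular cells at an adjusted p under 0.05 (edgeR quasi-likelihood test with Benjamini-Hochberg adjustment). Extravascular against intravascular cells, which share the extravascular libraries with that comparison, gave 0.951% (183 genes, 34 with the animal as a block). The members' log2 differences there were -0.42 ± 0.13 for *Lgals3*, -0.43 ± 0.25 for *Lgals8*, -0.11 ± 0.08 for *Lgals1*, -0.05 ± 0.36 for *Lgals9* and 0.14 ± 0.20 for *Lgals3bp* (SE). Latent against proliferative cells gave 0% of all genes (edgeR), with 977 genes at an unadjusted p under 0.05, 89 genes called by DESeq2 and 0 by limma. The proliferative gate is 1 pool, so this fit and its SEs assume that it varies like the other gates, whose libraries alone give the spread.

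Some sorted TCs carried leukocyte reads in every group. *Lyz2*, a lysozyme of macrophages and neutrophils, averaged 87.5 CPM over the latent libraries, and 8 markers (*Ptprc*, *Lyz2*, *Csf1r*, *Adgre1*, *Itgam*, *Marco*, *Tyrobp*, *Fcer1g*) summed to 257 CPM in latent replicate 1 and 178 CPM in latent replicate 4, but to 3.96 and 2.52 CPM in latent replicates 2 and 3. *Lgals3* was high in all 4. Cells with any read of these markers numbered 52 of 329 latent, 25 of 306 extravascular, 64 of 325 intravascular, 39 of 237 proliferative and 34 of 369 culture cells, and their markers exceeded 100 CPM in 3 latent cells and in 2 cells each of the extravascular, intravascular and proliferative gates. When all these cells were left out (a step chosen after seeing the marker values), *Lgals3* was at 1852–2641 CPM in latent and 635–963 CPM in extravascular cells, *Lgals9* at 61.7–119 and 12.5–33.1 CPM, and *Lgals3bp* at 43.4–80.5 and 18.8–25.9 CPM. Intravascular *Lgals9* was then at 5.66–28.1 CPM, with replicate 1 going from 14.2 to 5.66 CPM, and the proliferative pool stayed at 89.6 CPM. The log2 differences of latent from extravascular cells became 1.38 ± 0.15, 1.91 ± 0.45 and 1.36 ± 0.23 (SE).

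Per kilobase of the longest coding transcript, *Lgals1* exceeded *Lgals3* by 35.6 times in culture, 48.2 times in intravascular, 60.1 times in extravascular and 43.1 times in proliferative cells. In latent cells the ratio was 16.0, with 12.2–21.5 in single animals, below the 46.0–70.1 of the day 1.5 libraries. *Lgals1* made up 92.2–95.4% of the summed length-scaled level of the 4 galectins in latent cells and 97.8–98.6% in day 1.5 cells. *Lgals3* made up 4.43–7.58% and 1.41–2.13%. On this scale *Lgals9* was 12.1 times *Lgals8* in latent cells and 4.98 times in extravascular cells.

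Within the latent gate, cells were split by the sum of their S-phase and G2M module scores into cycling (above 0, 47–59 cells per animal) and noncycling (0 or below, 25–38 cells). The states are ranges of 1 score, and 17 of the 329 latent cells lay within 0.1 of the cut. *Lgals3* was at 4510.0, 4658, 4379.7 and 3177 CPM in the noncycling cells of the 4 animals and at 1732, 1416, 1321 and 1321 CPM in the cycling cells of the same animals. The states did not overlap, and the noncycling level was 2.41–3.31 times the cycling level within an animal, with a log2 difference of 1.39 ± 0.13 (SE). *Lgals1* went the other way, at 15029.5, 15732, 15936 and 18313 CPM in noncycling and 22794, 21024, 23695 and 26708 CPM in cycling cells. Here too the states did not overlap and the noncycling level was lower in 4 of 4 animals (log2 difference -0.66 ± 0.12, SE). Over all genes, 7.52% of 13305 tested were called in this comparison.

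Cycling latent cells also had more *Lgals3* than cycling cells of the other gates, 1448 ± 195 CPM (SD, n = 4) against 651 CPM in extravascular, 877 CPM in intravascular and 797 CPM in proliferative cycling cells (means per gate). Noncycling cells were at 4181 ± 679 CPM (SD, n = 4) in the latent gate, 1183 CPM in the extravascular, 1291 CPM in the intravascular and 1240 CPM in the proliferative gate. The mean of the latent gate was thus highest in both states. Without the cells holding leukocyte marker reads cycling cells were at 1012–1645 CPM in the latent and 702–1134 CPM in the intravascular gate, ranges that overlap, and noncycling cells at 3421–4633 and 1040–1434 CPM. For *Lgals1* the latent gate was lowest among noncycling cells (16253 CPM against 29633 CPM in extravascular cells) and near the others among cycling cells (23555 against 25339 CPM).

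**Figure D2:**
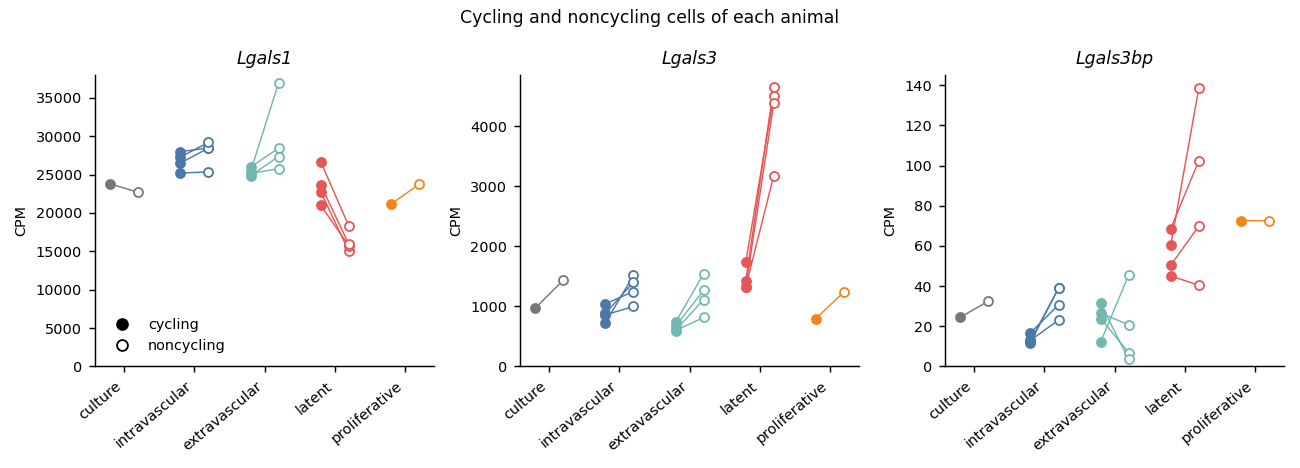
Filled points are cycling and open points noncycling cells, joined within an animal (culture and proliferative are 1 pool each); the vertical axes give CPM and start at 0. *Lgals3* was higher in noncycling cells in every animal and gate, whereas *Lgals1* was lower in noncycling than in cycling cells in the 4 latent animals and in culture.

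Cells of each gate were also ranked by cycle score and cut into tertiles, with the level computed per animal in each. Latent *Lgals3* was at 4412, 1738 and 1132 CPM from the lowest to the highest tertile (means of 4 animals), and the tertile with the lowest scores did not overlap the others. In the proliferative pool the same tertiles held 1153, 961 and 573 CPM. *Lgals1* in the lowest latent tertile was at 14694 CPM, ranging from 11453 to 17539 CPM, below the middle tertile at 25268 CPM and the highest at 22528 CPM. In extravascular cells the lowest tertile was instead the highest of the 3, with 29524, 25731 and 24135 CPM. Over single latent cells, Spearman's rho of *Lgals3* with the summed cycle score was -0.51 to -0.38 per animal and that of *Lgals1* was 0.26 to 0.35 (80–85 cells each, which share a library). With noncycling cells limited to a summed score below -1, the log2 differences were 1.76 ± 0.15 for *Lgals3* and -1.22 ± 0.13 for *Lgals1* (SE).

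**Figure D3:**
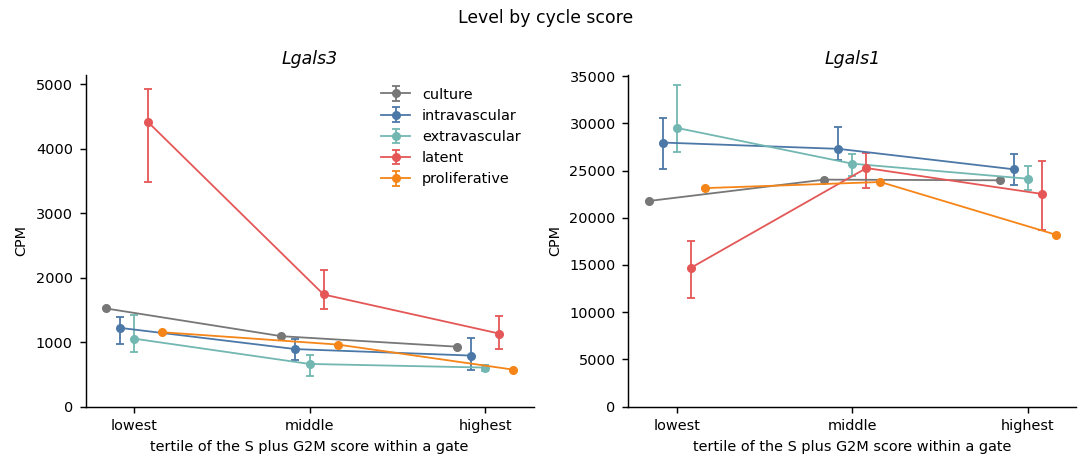
Mean level over animals in tertiles of the summed S and G2M score, cut within each gate; bars reach from the lowest to the highest animal, and culture and proliferative are 1 pool each. *Lgals3* declined across the tertiles in all 5 groups, with the latent gate's lowest tertile at 4412 CPM. *Lgals1* in the lowest latent tertile, at 14694 CPM, lay below every other point drawn.

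For *Lgals9* in latent cells the sum and the share of cells disagreed. The level was 95.3 ± 65.9 CPM in noncycling and 76.2 ± 13.2 CPM in cycling cells (SD, n = 4), with overlapping ranges. The share of cells with a read was 39.3–50% in noncycling and 63.8–76.3% in cycling cells, with no overlap. Thinned to 100000 reads the shares were 32.2–41.5% and 57.3–68.6%. In noncycling cells 79.0–95.6% of the *Lgals9* reads of an animal came from 5 cells. The summed log2 difference was 0.18 ± 0.35 (SE), whereas on the mean of log values per cell it was -1.77 ± 0.37 (SE). *Lgals3bp* (87.8 against 56.1 CPM, higher in noncycling cells in 3 of 4 animals) and *Lgals8* (17.0 against 9.83 CPM, 2 of 4) had overlapping states. *Lgals9* and *Lgals3bp* reads met in the same cells: 77.2% of latent cells with *Lgals9* reads had *Lgals3bp* reads against 52.8% of the cells without, the former with a median of 7102 genes and the latter with 6054, so that depth moved with the overlap and its part was not tested. Their rho over latent cells was 0.26 to 0.52 per animal.

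The cycle states of the intravascular and extravascular gates had no part in the choice and were tested. *Lgals3* was higher in noncycling cells in 4 of 4 animals in both gates. In intravascular cells it was at 1247, 998, 1516 and 1403 CPM in noncycling and 1042, 858, 726 and 882 CPM in cycling cells, with a log2 difference of 0.70 ± 0.17 (SE) that did not pass the test (adjusted p = 0.216, edgeR). In extravascular cells it was at 1540, 1266, 814 and 1113 CPM against 737, 669, 596 and 603 CPM, with no overlap and a log2 difference of 1.04 ± 0.19 (SE, adjusted p = 0.0815, edgeR). Each animal gave only 16–23 noncycling cells in these gates. DESeq2 called *Lgals3* in both gates (adjusted p = 0.0189 and 0.00021), and limma on the mean log values called it in the intravascular gate (adjusted p = 0.00766) but not in the extravascular gate (adjusted p = 0.237).

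*Lgals3bp* was at 39.0, 30.6, 23.0 and 38.8 CPM in noncycling and at 11.9, 16.7, 12.98 and 12.7 CPM in cycling intravascular cells. The states did not overlap, and its reads were in 56.2–70.0% of noncycling and 37.9–45.8% of cycling cells. The log2 difference was 1.40 ± 0.27 (SE, adjusted p = 0.0834, edgeR), called by DESeq2 (adjusted p = 2e-06) and not by limma (adjusted p = 0.159). In extravascular cells of the same animals the states overlapped (-0.11 ± 0.66, SE, adjusted p = 0.98, edgeR). A fit over both gates, chosen after seeing these values, gave a difference between the gates of 1.49 ± 0.78 on the log2 scale (SE, adjusted p = 0.899, edgeR, 0 of 14090 genes called, 831 at an unadjusted p under 0.05). The other members did not pass in either gate. *Lgals1* was 0.19 ± 0.09 and 0.42 ± 0.14 higher (log2, SE, adjusted p = 0.595 and 0.456, edgeR), in the opposite direction to the latent gate. With limma its differences were instead negative in both gates, the direction of the latent gate.
With edgeR 0 of 5 members passed in each gate, where DESeq2 and limma made the calls given above, at a background of 0.295% in intravascular cells (38 of 12888 genes, 20 with the animal as a block) and 0.0633% in extravascular cells (8 of 12644 genes, 4 with the block), with 2 members in each at an unadjusted p under 0.05, as were 8.51% and 8.09% of all genes. In the same gates DESeq2 called 270 and 217 genes in all and limma 272 and 1233.

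Genes around the galectins were counted from 5 lists, which were chosen with earlier results of these data known. Calls of list genes are therefore not independent of that choice. Of 32 interferon-responsive genes tested, 7 rose and 0 fell in latent against extravascular cells, with a median log2 difference of 0.95 against 0.03 over all genes tested, of which 8.57% were called. *Zbp1*, a nucleic acid sensor, rose by 2.49 ± 0.68 (SE, adjusted p = 0.0388), *Irf9*, the DNA-binding part of the interferon-activated complex, by 2.17 ± 0.33 (adjusted p = 0.00116), *Psmb9*, an immunoproteasome subunit, by 2.11 ± 0.26 (adjusted p = 0.000253), and *Gbp2*, a guanylate-binding protein, by 1.96 ± 0.38 (adjusted p = 0.0061, all edgeR). The leukocyte markers given above were also higher in latent replicates 1 and 4 (257 and 178 CPM) than in any extravascular library (at most 4.34 CPM). Without the marker-holding cells 6 of 32 rose and 0 fell (median 0.85, against 0.0066 over all genes), and *Zbp1* was at 2.29 ± 0.71 and did not pass (SE, adjusted p = 0.0738, edgeR). Between noncycling and cycling latent cells 10 of 29 tested rose and 0 fell, with a median of 1.31 against 0.07 over all genes, of which 7.52% were called. *Ifit3* (6.90 ± 1.74, adjusted p = 0.034) and *Ifit1* (4.38 ± 1.02, adjusted p = 0.0239) led, averaging 0.25 and 0.447 CPM in cycling cells, followed by *Gbp3* (2.32 ± 0.58, adjusted p = 0.0332) and *Irgm1* (2.23 ± 0.46, adjusted p = 0.0139, edgeR, SE). With the animal as a block *Gbp3* (adjusted p = 0.0506), *Igtp* (adjusted p = 0.0577), *Oasl2* (adjusted p = 0.0725) and *Irf7* (adjusted p = 0.121, edgeR) did not pass. Of the 16 genes of the 5 lists called in this comparison 8 were called with the block, and 3 were called only with it (*Bst2* and *Usp18* higher, *St3gal4* lower). Without the marker-holding cells 10 of 28 interferon-responsive genes rose and 0 fell (median 1.42), and *Ifit3* could not be fitted. From intravascular to extravascular cells 2 of 32 fell, where 0.951% of all genes were called, and 0 rose. *Psmb8* fell by 1.14 ± 0.13 (SE, adjusted p = 0.00321, and 0.0482 with the animal as a block) and *Xaf1* by 0.73 ± 0.15 (SE, adjusted p = 0.0435, and 0.102 with the block, edgeR). Of the 5 list genes called between these gates of the same animals, *Psmb8* was the 1 called with the block. By cycle state in the intravascular and extravascular gates no gene of the 5 lists was called (edgeR), and the interferon-responsive genes had medians of 0.31 (28 tested, 3 at an unadjusted p under 0.05) and -0.58 (25 tested, 1), against medians over all genes of 0.065 and 0.062 and shares at an unadjusted p under 0.05 of 8.51% and 8.09%.

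Of 18 known galectin-binding glycoproteins and partners, 1 rose and 2 fell in latent against extravascular cells (median -0.17, against 0.03 over all genes, of which 8.57% were called). *Fn1*, fibronectin, rose by 0.96 ± 0.21 (SE, adjusted p = 0.0121), and *Itgb1*, the integrin beta-1 chain, fell by 1.04 ± 0.09 (adjusted p = 2.2e-05), as did *Tfrc*, the transferrin receptor, by 1.10 ± 0.19 (adjusted p = 0.00304, edgeR). In noncycling latent cells *Fn1* (1.09 ± 0.24, adjusted p = 0.0186), *Lamp2*, a lysosomal membrane protein (1.05 ± 0.25, adjusted p = 0.0237), and *Cd44*, the hyaluronan receptor (0.69 ± 0.17, adjusted p = 0.0312), were higher than in cycling cells, 3 of 16 with 0 lower, where 7.52% of all genes were called. With the animal as a block *Fn1* passed (adjusted p = 0.00369), and *Lamp2* (adjusted p = 0.0653) and *Cd44* (adjusted p = 0.052, edgeR) did not. Without the cells holding leukocyte marker reads *Lamp2* was at 0.98 ± 0.30 and did not pass (SE, adjusted p = 0.0731, edgeR). Among 9 tested genes of the response to damaged membranes, *Sqstm1*, an autophagy receptor, rose in latent cells (1.33 ± 0.22, adjusted p = 0.00228) and was 1.69 ± 0.21 higher in noncycling latent cells (adjusted p = 0.000696), where *Map1lc3b*, an autophagosome protein, was higher by 0.62 ± 0.15 (adjusted p = 0.0284, 0.0512 with the block, and 0.58 ± 0.18 with 0.0713 without the marker-holding cells, edgeR, SE). Of 19 tested glycosyltransferases and their helpers that build galectin ligands, *St3gal1*, a sialyltransferase, was higher in both comparisons (1.06 ± 0.28, adjusted p = 0.0322, and 0.97 ± 0.24, adjusted p = 0.0335, or 0.0981 with the block, edgeR, SE), and passed in neither without the marker-holding cells, where the differences were 1.01 ± 0.32 and 1.25 ± 0.40 (adjusted p = 0.0831 and 0.0864). In extravascular against intravascular cells *C1galt1c1*, the chaperone of the core O-glycan synthase, rose by 1.19 ± 0.22 (adjusted p = 0.0327, and 0.111 with the block) and *P4hb*, a protein disulfide isomerase found on cell surfaces, by 0.78 ± 0.17 (adjusted p = 0.047, and 0.0575 with the block, edgeR, SE). Without the marker-holding cells *C1galt1c1* passed (1.35 ± 0.23, adjusted p = 0.0287), and *P4hb* (0.82 ± 0.19, adjusted p = 0.059) and *Xaf1* (-0.70 ± 0.16, adjusted p = 0.0505, edgeR, SE) did not.

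Of the remaining galectin-family genes, *Lgalsl* was at 11.3–18.5 CPM in the TC groups and *Lgals2* at 0.034 CPM in extravascular, 0.896 CPM in intravascular and 1.68 CPM in latent cells. Of the 4 that could be fitted, *Lgals2* was the 1 that fell from intravascular to extravascular cells (-4.63 ± 0.92, adjusted p = 0.04, and 0.113 with the block) and the 1 that rose from extravascular to latent cells (5.32 ± 0.94, adjusted p = 0.00323, edgeR, SE), both against a level of few reads. Without the marker-holding cells the first was at -4.35 ± 1.24 and did not pass (adjusted p = 0.101), and the second passed (5.47 ± 1.29, adjusted p = 0.0204, edgeR, SE). *Lgals7* averaged 3.64 CPM in extravascular cells, from 0 to 13.8 CPM, and *Lgals4* reached 1.94 CPM in latent cells. The pseudogenes *Lgals1-ps1* and *Lgals1-ps2*, which could share reads with *Lgals1*, were at 0.287 CPM or below in every TC library.

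Over the 14 TC libraries, which differ in gate, day and animal, *Lgals3bp* ranked 6th of 6838 genes in likeness to *Lgals9*, and *Lgals9* 4th in likeness to *Lgals3bp* (Pearson's r of log CPM 0.93). The genes most like *Lgals9* were *Pmvk* (r = 0.97), *Irf1*, an interferon-induced transcription factor (0.96), and *Gm6091* (0.94). Those most like *Lgals3bp* were *Pigc* (0.94), *Prxl2a* (0.93) and *Ciapin1* (0.93). For *Lgals3* they were *Hagh* (0.97), *Syne1* (0.95) and *Zfand2a* (0.94), and for *Lgals1* *Nme2* (0.97), *Spcs3* (0.94) and *Bola2* (0.93). *Lgals1* was negatively related to *Lgals3bp* (-0.88), *Lgals9* (-0.80) and *Lgals3* (-0.73).

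In ECs the members stood in another order. *Lgals9* was the leading member, at 266, 567, 434 and 469 CPM on day 0, 571, 284 and 456 CPM on day 1.5 and 324, 505 and 419 CPM on day 3.5. The 3 days overlapped fully, with log2 differences from day 0 of -0.05 ± 0.31 on day 1.5 and -0.13 ± 0.31 on day 3.5 (SE). Its reads were in 35.1–60.2% of day 0, 52.6–73.7% of day 1.5 and 58.3–73.7% of day 3.5 cells. Per kilobase *Lgals9* made up 77.1–98.0% of the 4 galectins in 9 of 10 EC libraries and 25.2% in day 1.5 replicate 2. The latter library held 1 cell with 61559 CPM of *Lgals1*, described below. Without that cell its *Lgals1* level went from 417 to 19.7 CPM.

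*Lgals3bp* was at 123, 169, 138 and 151 CPM on day 0 and at 391, 239 and 271 CPM on day 1.5, so that the days did not overlap. On day 3.5 it was at 104.95, 121 and 212 CPM, again around the day 0 levels. The log2 difference from day 0 was 0.99 ± 0.29 on day 1.5 and -0.06 ± 0.30 on day 3.5 (SE). Within a sorting day, day 1.5 animals averaged 300.3 CPM and the 2 day 0 animals sorted with them 146 CPM, and day 3.5 animals 146 CPM against 144 CPM. With the sorting day as a term, chosen after seeing the data, the differences were 0.99 ± 0.38 and -0.059 ± 0.37 (SE). Reads were in 20.7–40.6% of cells on day 0, 41.3–59.1% on day 1.5 and 41.8–45.1% on day 3.5. Thinned to 100000 reads, with 115, 86 and 131 cells left out, these became 19.2–33.1%, 33.0–48.7% and 33.9–38.9%. By class, *Lgals3bp* in gCap cells was at 94.4–145 CPM on day 0, 270–344 CPM on day 1.5 and 108–199 CPM on day 3.5, without overlap between the first 2 days. In aCap cells the days overlapped (158–270, 184–507 and 57–334 CPM), and in large-vessel cells, of which there were 29, 61 and 41, the means went the other way (240, 88.0 and 55.7 CPM), with overlapping ranges.

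**Figure D4:**
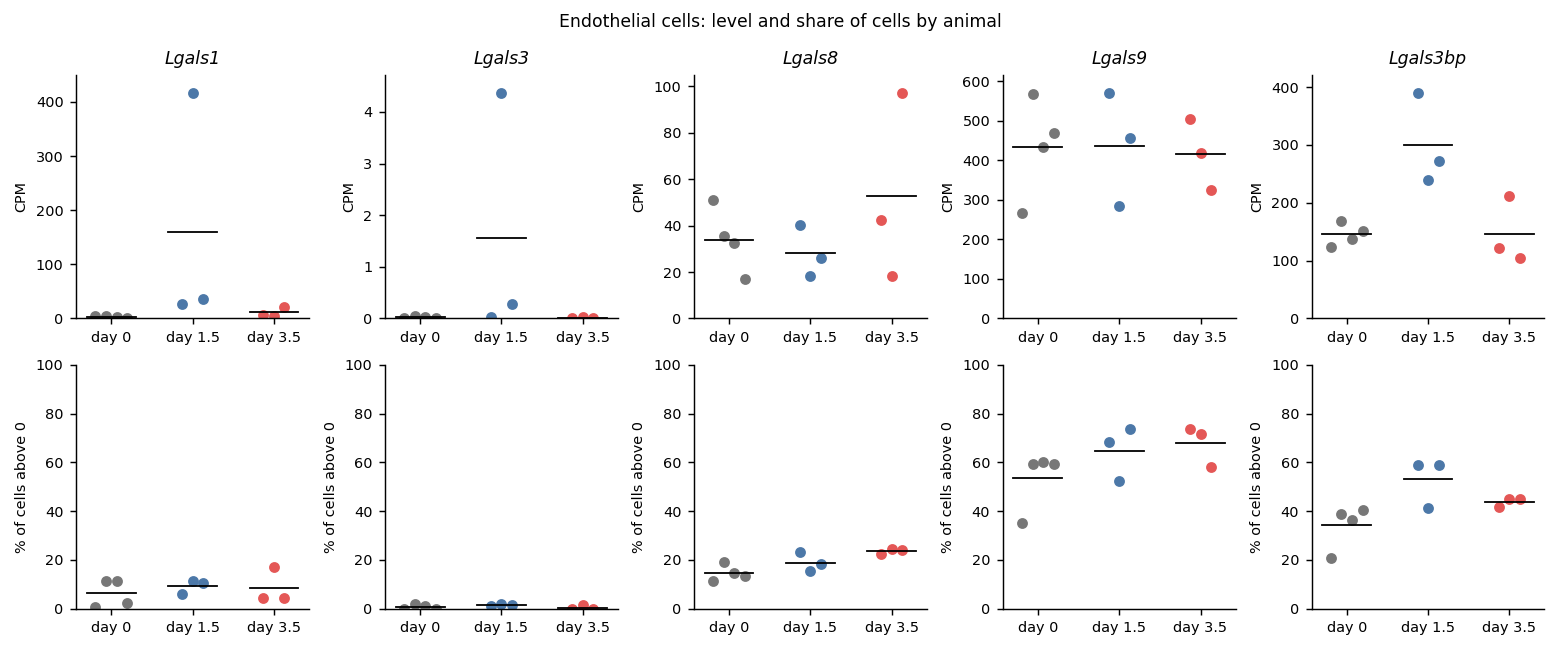
Each point is 1 animal and the line the mean of a day; the upper row gives CPM and the lower row the percentage of cells with any read. *Lgals3bp* on day 1.5 lay above every day 0 library, *Lgals9* overlapped across days, and the highest *Lgals1* and *Lgals3* points on day 1.5 come from the library with 1 exceptional cell.

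*Lgals1* in ECs rested on few cells. It was at 5.27, 4.26, 2.48 and 0.0486 CPM on day 0, 26.7, 417 and 35.6 CPM on day 1.5 and 21.1, 7.001 and 5.38 CPM on day 3.5. Day 1.5 lay above day 0 in every animal, but the shares of cells with a read overlapped, at 0.901–11.504% on day 0 and 6.07–11.3% on day 1.5. Cells with at least 100 CPM numbered 5 of 839, 21 of 941 and 17 of 699 on the 3 days. In day 1.5 replicate 2 a single cell had 61559 CPM of *Lgals1* and 666 CPM of *Lgals3*. That cell had reads of 3 of 5 epithelial TC markers (*Krt8* 199 CPM, *Krt18* 244 CPM), of 3 of 6 endothelial markers (*Pecam1* 21.6 CPM, *Cldn5* 5.43 CPM, *Cdh5* 0) and 0 of 10 macrophage markers, and 5098 genes against a median of 2097 in its library. Without it the library was at 19.7 CPM of *Lgals1* and 0.0706 CPM of *Lgals3*, and the log2 difference of day 1.5 from day 0, which was 5.03 ± 1.77 (SE) with the sorting day as a term, went from 5.69 ± 1.38 to 3.13 ± 1.09 (SE). On the mean of log values per cell it was 0.30 ± 0.15 (SE).

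*Lgals3* was near 0 in ECs, at 0.0417 CPM or less on day 0, 0.0232, 4.37 and 0.284 CPM on day 1.5 and 0.0306 CPM or less on day 3.5. The day 1.5 level of replicate 2 was 0.0706 CPM without the cell described above, and replicates 2 and 3 both stayed above every day 0 and day 3.5 animal. *Lgals3* did not enter the EC fits. The summed epithelial markers were at 0.134–10.9 CPM on day 0, 2.66–12.1 CPM on day 1.5 and 0.0816–7.19 CPM on day 3.5, and their part in the EC values of *Lgals1* and *Lgals3* was not tested. *Lgals8* was at 16.9–51.1, 18.2–40.5 and 18.1–97.4 CPM on the 3 days, which overlapped, with log2 differences of -0.31 ± 0.59 and 0.57 ± 0.58 (SE). Both EC comparisons share the day 0 animals. In each, 0% of 17585 genes were called (edgeR), with 1422 and 1541 genes at an unadjusted p under 0.05, 360 and 475 genes called by DESeq2 and 161 and 262 by limma. No gene of the 5 lists was called by edgeR on either day, with 10 and 4 of 32 interferon-responsive genes at an unadjusted p under 0.05 (8.09% and 8.76% of all genes). On day 1.5 *Irf1* (-0.81 ± 0.27, SE) and *Ifi35* (-0.71 ± 0.25, SE) were the lower ones among them, and all 4 on day 3.5 were higher. DESeq2 called 4 of the 32 higher on each day and limma 5 and 6, with 0 lower. DESeq2 also called *Mgat4a*, an N-glycan branching enzyme, on both days and *Tfrc* on day 1.5. *Cxcl10*, an interferon-induced chemokine named here after its values were seen, was at 25.5–82.8 CPM on day 1.5 and 0.422–18 CPM on day 3.5 against at most 0.0122 CPM on day 0, with no overlap (adjusted p = 0.0926 and 0.18, edgeR). It was called by DESeq2 on both days (adjusted p = 9.8e-17 and 1.65e-10) and by limma on day 1.5 (adjusted p = 0.00078).

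EC classes were assigned with the study's marker lists, which hold none of the members. General capillary cells (gCap, 1579 cells), aerocyte capillary cells (aCap, 604) and large-vessel cells (131, 5–29 per animal) were compared over the 10 animals with the day as a covariate. They too are ranges of scores, with 236 of 2479 cells within 0.1 of the aCap cut and 116 within 0.1 of the gCap cut. *Lgals9* averaged 482 ± 118 CPM in gCap, 355 ± 135 CPM in aCap and 212 ± 129 CPM in large-vessel cells (SD, n = 10). It was higher in gCap than in aCap cells in 9 of 10 animals and higher than in large-vessel cells in 10 of 10. The log2 differences from gCap were -0.08 ± 0.37 in aCap (adjusted p = 0.993) and -0.66 ± 0.37 in large-vessel cells (SE, adjusted p = 0.286, edgeR), where the median over all genes tested was -0.36. The shares of cells with *Lgals9* reads were 62.1%, 62.0% and 63.4% (means over animals).

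*Lgals3bp* had its highest mean in aCap cells, 238 ± 122 CPM against 184 ± 95.8 CPM in gCap and 139 ± 161 CPM in large-vessel cells (SD, n = 10). aCap levels ran from 57.0 to 507 CPM with a median of 221 CPM and gCap levels from 94.4 to 344 CPM with a median of 139 CPM, so the ranges overlapped. Thinned to 100000 reads, *Lgals3bp* was in 30.9–74.1% of aCap and 13.9–47.3% of gCap cells, higher in aCap in 9 of 10 animals. The log2 difference of the sums was 0.77 ± 0.65 (SE, adjusted p = 0.877, edgeR), and on the mean of log values per cell 1.41 ± 0.43 (SE, adjusted p = 0.0391, limma). In large-vessel cells it was 0.11 ± 0.69 (SE, adjusted p = 0.952, edgeR), of the opposite sign to the means and to 8 of 10 animals, in which large-vessel cells were below gCap cells. *Lgals8* (0.85 ± 1.00 and 0.58 ± 1.10, SE) did not pass in either class (adjusted p = 0.812 or higher, edgeR). *Lgals1* averaged 11.6 CPM in gCap, 7.87 CPM in aCap and 4.98 CPM in large-vessel cells, and was higher in aCap than in gCap cells in 3 of 10 animals. Its log2 differences, of which the first has the opposite sign to the means, were 0.24 ± 1.18 (adjusted p = 0.994) and -0.82 ± 1.19 (SE, adjusted p = 0.745, edgeR).

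**Figure D5:**
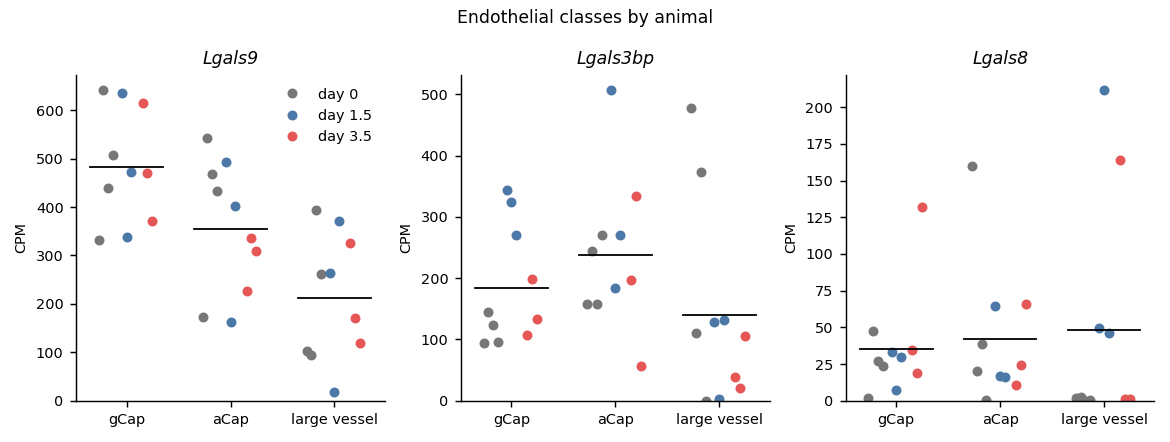
Each point is the level of a class in 1 animal, colored by day, with the mean over 10 animals as a line and CPM on the vertical axis. *Lgals9* was lower in large-vessel than in gCap cells in 10 of 10 animals, and *Lgals3bp* was higher in aCap than in gCap cells in 8 of 10.

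With edgeR 0 of 4 members passed in each class comparison (with limma *Lgals3bp* passed in aCap cells, where limma called 804 genes in all), at an edgeR background of 3.53% in aCap (474 of 13414 genes) and 10.5% in large-vessel cells (1412 of 13414, 2357 with the animal as a block). Of the partner list 3 of 16 were higher and 2 lower in aCap cells. *Kdr*, the main VEGF receptor, was higher by 2.95 ± 0.50 (adjusted p = 0.000203), *Cd44* lower at -7.13 ± 1.57 (adjusted p = 0.00429), *Cd63*, a tetraspanin, lower at -2.34 ± 0.66 (adjusted p = 0.0368) and *Nrp1*, a VEGF and semaphorin co-receptor, higher by 1.82 ± 0.40 (adjusted p = 0.00406, edgeR, SE). Of the other lists, *Ifit1* (-4.58 ± 1.30, adjusted p = 0.0386, and 0.148 with the animal as a block), *St3gal4*, a sialyltransferase (-4.26 ± 1.03, adjusted p = 0.0105), and *Tax1bp1*, an autophagy receptor (-1.37 ± 0.31, adjusted p = 0.0054), were lower in aCap cells (edgeR, SE). In large-vessel cells *Cd63* (4.10 ± 0.72, adjusted p = 0.00046) and *Bsg*, basigin (1.51 ± 0.39, adjusted p = 0.0104), were higher, 2 of 16 partners with 0 lower, as was *Gcnt1*, a glycan-branching enzyme (8.23 ± 1.76, adjusted p = 0.00251). *Ifit2* had no read in any large-vessel library, against a mean of 5.25 CPM in gCap cells, and was called lower (adjusted p = 0.0241, edgeR). *Zbp1* (-6.73 ± 1.86, adjusted p = 0.017), *Tap1*, a peptide transporter (-4.75 ± 1.01, adjusted p = 0.00246), and *Trim16*, a ubiquitin ligase at damaged membranes (-4.43 ± 1.21, adjusted p = 0.0159, edgeR, SE), were lower.

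Over the 10 EC libraries the genes most like *Lgals9* were *Crtc2* (r = 0.93), *Ppib* (0.92) and *Usp14* (0.92), and those most like *Lgals3bp* were *Nup62* (0.91), *Ppa1* (0.86) and *Emc1* (0.84). *Lgals8* was most like *Mfn2* (0.91), *Myl4* (0.88) and *Dchs1* (0.87), and *Lgals1* most like *Cox6b1* (0.91), *Gm12481* (0.90) and *Rpl37rt* (0.90). The relation of *Lgals9* to *Lgals3bp*, at 0.93 over TC libraries, was 0.34 over EC libraries, which differ in day and animal. *Lgalsl* and *Lgals4* were the remaining family members above 1 CPM in ECs.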

How the data were processed

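Single TCs and ECs were sorted into wells and sequenced with a modified SMART-Seq2 protocol without molecular identifiers, so reads are not independent molecules and intervals or depth cover counting error only. The authors quantified reads with Salmon 0.7.2 against GRCm38, per the labels, and deposited estimated counts per gene and cell, which the methods say were collected with tximport, together with log10 normalized values and a cell annotation. The annotation release is not given in the sources used here. Columns of no mapped sample numbered 0. No doublet caller was run.

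The cells present in the deposited normalized values were used (2479 of 3455 ECs and 1566 of 1920 TCs). Estimated counts were summed per animal and group, cycle state or EC class (at least 5 cells), rounded, and tested with edgeR 4.0.16 quasi-likelihood fits over all genes passing its expression filter (R 4.3.3, TMM scaling, Benjamini-Hochberg adjustment, threshold 0.05). The 4 sorted TC gates shared one fit (culture, a single pool, was left out) and the EC days another. CPM are reads per 1000000 reads of the summed library. Alternatives were DESeq2 1.42.0, its size factors in edgeR, no expression filter and limma 3.58.1 on the mean deposited log10 value per library (differences converted to log2). Further ones were at most 5% mitochondrial reads, an animal block and leaving out each replicate. The latent gate was also fitted with a cycle cut at -1, and the EC classes with day 0 animals alone. Cycle and EC class scores were module scores (Seurat 5.3.0) with the study's lists, leaving out any member. EC classes used the study's cuts. For the cycle the main cut here was 0 within each gate. The study instead set latent-gate cells with a summed score below -1 against proliferative-gate cells above 0. The scripts were tested on simulated counts. Per the annotation, latent libraries come from other animals than the day 1.5 libraries of the same number. Same-numbered TC libraries of the same day come from the same animals. The correlations of their deviations from group means were -0.0075 to 0.0403 for the 4 animals of the day 1.5 gates, -0.0124 to 0.0176 for latent, -0.02 to 0.0623 for intravascular and 0.00577 to 0.0693 for extravascular cycle states, 0.0164 to 0.113 for aCap and 0.0112 to 0.08 for large-vessel cells. Blocked counts are given where they moved by over 1.5 times. GEO's labels name replicates, and the p-values measure the spread between these animals.

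The 5 members and the lists of related genes were chosen with earlier results of these data known. Named genes are the members, up to 4 called genes per list and comparison with the largest log2 difference, and the 3 genes most like each member by Pearson's r of log CPM (genes with a mean of at least 10 CPM). *Lgals8* in TCs and *Lgals3* in ECs lay below that level. Thinned shares are the expected share of cells with a read after drawing 100000 reads per cell.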

Additional observations from a re-analysis of the deposited data

Results flagged for a closer look

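Of 65 groups of 4 to 10 libraries examined for a library far from the others, 6 held one. Some groups share cells and those of 10 libraries mix the EC days, so no chance rate applies to this count. *Lgals9* in intravascular replicate 2 was at 34.3 CPM, against 14.2 CPM in the next library, and in the cycling cells of that library at 43.6 CPM, against 17.2 CPM. In aCap cells *Lgals1* was at 42.8 CPM in day 1.5 replicate 3, with the next animal at 16.8 CPM, and *Lgals8* at 159.9 CPM in day 0 replicate 1, with the next at 66.2 CPM. *Lgals8* in gCap cells was at 131.8 CPM in day 3.5 replicate 1, with the next at 47.2 CPM. *Lgals3* in large-vessel cells was at 2.72 CPM in day 1.5 replicate 3 and had no read in the other animals.

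Sorted EC wells absent from the deposited normalized values were used in no comparison. After injection these wells held *Lgals1* and *Lgals3* reads above the level of the uninjected animals. Per the paper's methods, ECs with many mitochondrial reads or few genes were excluded, and contaminating immune, stromal and mural cells were removed. The wells can therefore include cells that are not endothelial, and their kind was not tested. *Lgals1* was at 688 CPM in the 211 wells of day 1.5 and 305 CPM in the 452 wells of day 3.5, against 58.1 CPM in the 313 wells of day 0. *Lgals3* was at 138 and 96.5 CPM, against 5.17 CPM. The share of these wells with a *Lgals3* read was 14.7% on day 1.5, 2.43% on day 3.5 and 0.319% on day 0, at a median of 2102, 587.5 and 785 genes.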

How the results depend on the processing

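Counts of called genes moved with the tool, the animal block and the libraries used. DESeq2 called 1326 genes for extravascular against intravascular, 2699 for latent against extravascular, 89 for latent against proliferative, 360 and 475 for EC days 1.5 and 3.5, 1881, 270 and 217 for cycle states of latent, intravascular and extravascular cells, 916 for aCap and 2956 for large-vessel cells. limma called 1454, 5027, 0, 161, 262, 2114, 272, 1233, 804 and 932 in that order. With the animal block the counts were 34 for extravascular against intravascular, 20 and 4 for intravascular and extravascular cycle states and 2357 for large-vessel cells, and the block changed no call of a member. Of list genes called without it, it kept 1 of 5 between extravascular and intravascular cells, 8 of 16 by latent cycle state, 7 of 8 for aCap and 7 of 7 for large-vessel cells. A cycle cut at -1 gave 1593 latent genes, no expression filter 835 aCap genes, day 0 animals alone 95, and at most 5% mitochondrial reads 1 gene for EC day 1.5. Leaving out cells with leukocyte marker reads, chosen after seeing the data, gave 24 and 16 genes for intravascular and extravascular cycle states. A term for the sorting day, also chosen after seeing the data, left both EC counts at 0. Leaving out one library at a time gave 8–518 genes for extravascular against intravascular (518 without extravascular replicate 1), 1189–1465 for latent against extravascular, 0–0 for latent against proliferative, 0–1 for each EC day, 399–854 for latent (399 without replicate 3, 456 without replicate 1, 510 without replicate 2), 0–17 for intravascular and 0–4 for extravascular cycle states, 399–443 for aCap and 1160–1461 for large-vessel cells.

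Among members, directions turned only where no edgeR call stood. By latent cycle state *Lgals9* turned from higher to lower in noncycling cells with limma, as given above. The turns listed next are those of the tested comparisons. With limma *Lgals1* was -0.062 and -0.16 by cycle state in intravascular and extravascular cells and 0.033 in large-vessel cells, and *Lgals3bp* -0.23 in large-vessel cells. *Lgals3bp* in large-vessel cells was -0.047 without the expression filter and -0.24 with the block, where *Lgals8* was -0.66 and *Lgals1* in aCap cells -0.69. With day 0 animals alone *Lgals9* was 0.15 in aCap and *Lgals8* -3.54 in large-vessel cells. Over left-out libraries the extravascular cycle state gave -1.13 to 0.41 for *Lgals3bp*, -0.77 to 0.10 for *Lgals8* and -0.46 to 0.14 for *Lgals9*; aCap gave -1.50 to 0.58 for *Lgals1*, -0.19 to 1.11 for *Lgals8* and -0.14 to 0.028 for *Lgals9*; and large-vessel cells gave -0.34 to 0.40 for *Lgals3bp* and -1.14 to 1.26 for *Lgals8*. The cause was not tested in any of these. The animal block could not be fitted for latent against extravascular cells or for the EC days, which come from different animals. Nor could it be fitted for latent against proliferative cells, which share 1 animal per the annotation. Not run were 4 proliferative libraries, since the annotation names 1 animal, and the cycle cut at -1 on day 1.5, which left 1–4 cells per animal. Low read numbers limit *Lgals8*, *Lgals9* and *Lgals3bp* in states with 16–38 cells.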

Other observations

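Over single TCs, *Lgals1* was negatively related to the epithelial-mesenchymal transition score of the study, computed without *Lgals1*, in extravascular cells (Spearman's rho -0.58 to -0.47 per animal), in the proliferative pool (-0.39), in latent cells (-0.31 to -0.21), in intravascular cells (-0.28 to -0.13) and in culture (-0.18). With the Wnt score *Lgals3* had a rho of 0.28 to 0.41 in latent, 0.084 to 0.14 in extravascular and -0.17 to 0.16 in intravascular cells, 0.022 in culture and -0.082 in the proliferative pool. *Lgals1* was negatively related to the Wnt score in latent (-0.36 to -0.26), extravascular (-0.46 to -0.33) and intravascular cells (-0.40 to -0.067), in culture (-0.24) and in the proliferative pool (-0.37). These cells share a library and differ in depth, and no test was made.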
